A study of Mus musculus with 8 samples.

Results

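Foxk1 peaks around the genes of Foxk1 itself and of its paralog Foxk2 were described in mouse embryonic fibroblasts (MEFs), connective-tissue cells cultured from embryos. The members were all peaks of the deposited list whose summit, the position of highest enrichment, lay in 1 of 2 windows of the mm9 assembly: 142.82 to 143.00 Mb on chromosome 5 for Foxk1, and 121.06 to 121.25 Mb on chromosome 11 for Foxk2. These windows held 4 and 7 peaks, 11 of the 28933 in the list. The gene starts used here were given only as near 142.88 Mb for Foxk1 and near 121.12 Mb for Foxk2. They were assumed to be rounded to the nearest 10 kb, under which each distance to a start may be off by 5 kb.

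Foxk1 antibody was used for 3 of the series' libraries and IgG for another 3, and 2 were input chromatin, all from MEFs grown in DMEM without treatment. The labels give no strain, genotype or embryonic age. The peaks come from 1 list, named as Foxk1 against input, in which no library has values of its own, so no value below has a replicate error and no difference was tested. Read depth is unknown, no value for IgG was used, and Foxk1 binding cannot be told apart from enrichment that IgG would also give.

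Foxk1 and Foxk2 are forkhead transcription factors. Each binds DNA through a winged-helix forkhead domain and also carries a forkhead-associated domain, which binds phosphorylated proteins. They share many target genes, act largely as repressors through the Sin3 corepressor complex, and are known for restraining autophagy genes and for promoting glycolysis. Many transcription factors bind at their own gene or at that of a paralog, and the comparison asked whether the list places Foxk1 at either gene.

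Neither gene start had a peak close to it. The nearest summit lay 36.5 kb from the given start of Foxk1 and 21.5 kb from that of Foxk2. These nearest peaks were strong: the Foxk1 start had one on each side, with signal values of 136 and 180 at almost equal distances, and the Foxk2 start had one of 113 on its lower-coordinate side. The signal value is the score the authors gave each peak, with no stated scale, and its median over the list was 17.8. A peak-free stretch of 117 kb began at that Foxk2 peak and ran past the start in the direction in which Foxk2 is transcribed.

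The Foxk2 promoter is shown because it is the stretch directly before the start of the paralog, near which no peak was listed. The 250 bases before the Foxk2 start come from RefSeq on GRCm38.p6, plus strand, chr11:121259737-121259986. This build differs from that of the peaks, and the position is not comparable with peak coordinates. Capitals mark the words CCAAT or ATTGG, the 2 strands of the CCAAT box, a common promoter element.
Foxk2: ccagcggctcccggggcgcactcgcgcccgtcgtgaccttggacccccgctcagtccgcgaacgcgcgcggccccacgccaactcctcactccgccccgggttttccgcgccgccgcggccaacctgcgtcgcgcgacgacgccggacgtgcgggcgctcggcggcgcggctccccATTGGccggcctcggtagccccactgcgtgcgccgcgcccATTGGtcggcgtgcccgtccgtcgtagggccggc

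The Foxk2 promoter was rich in G and C, which made up 78.4% of its bases against a median of 52.4% over 32851 promoters of the same length. It held 48 CpG dinucleotides, the pairs at which DNA can be methylated, against a median of 6. More CpG than in 99.8% of these promoters puts it at the far end of that distribution. The forkhead word TGTTTAC, searched on both strands, did not occur in it, and 3.17% of all promoters held it. The shorter word TAAACA, which every match of TGTTTAC holds on the opposite strand, did not occur either, against 12.03% of all promoters. No match says only that these letters are not in this window. CCAAT, a word chosen after the sequence was seen, occurred 2 times on the minus strand, ending 70 and 30 bases before the start, and at least 1 copy was present in 33.8% of all promoters. The promoter of Foxk1 was not analysed here.

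In the Foxk1 window, the highest peak lay on chromosome 5 from 142916299 to 142916758, 36.5 kb to the higher-coordinate side of the given start. Its signal value of 180 ranked 75th in the whole list and 7th of the 1946 peaks on chromosome 5. Its deposited q-value was 0.00014, the lowest in the list, which 12.3% of all peaks shared. The tables used here do not give the strand of Foxk1. From general knowledge it is transcribed towards higher coordinates, which would put this peak on the transcribed side of the start, and the words upstream and transcribed side rest on that for all 4 peaks of this window. Whether it falls within an intron or exon was not determined, since no mm9 gene annotation was used.

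The next highest peak of the Foxk1 window lay from 142843236 to 142843695, on the upstream side, 36.5 kb from the given start. Its signal value was 136, which ranked 168th in the list and 12th on chromosome 5, and it too had the lowest q-value. Both strong peaks thus stood equally far from the given start, although with that start off by 5 kb the distances would be 31.5 and 41.5 kb. They were 73.1 kb from each other, with no peak listed between them. In gene order on GRCm38, the nearest annotated genes on the lower-coordinate side of Foxk1 are the long noncoding RNAs Gm31127, Gm31068 and Gm30998. Which of these, if any, the upstream peak lies closest to was not determined on mm9.

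The 2 remaining peaks of the Foxk1 window were weaker. One, from 142939638 to 142940097, lay 59.9 kb from the start on the transcribed side and had a signal value of 29.7 (q-value 0.000549), with 22.0% of the list at or above it. The last, from 142997407 to 142997866, lay 118 kb from the start with a signal value of 13.4 (q-value 0.0029), and 75.8% of the list reached at least its value. Its summit was 2364 bp inside the window's edge. Next after Foxk1 on its transcribed side come Ap5z1, which encodes a subunit of the AP-5 adaptor complex of endosomal sorting, and Radil, which encodes an effector of the small GTPase Rap1. None of the weaker peaks was assigned to Foxk1 or to these neighbours.

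**Figure D1:**
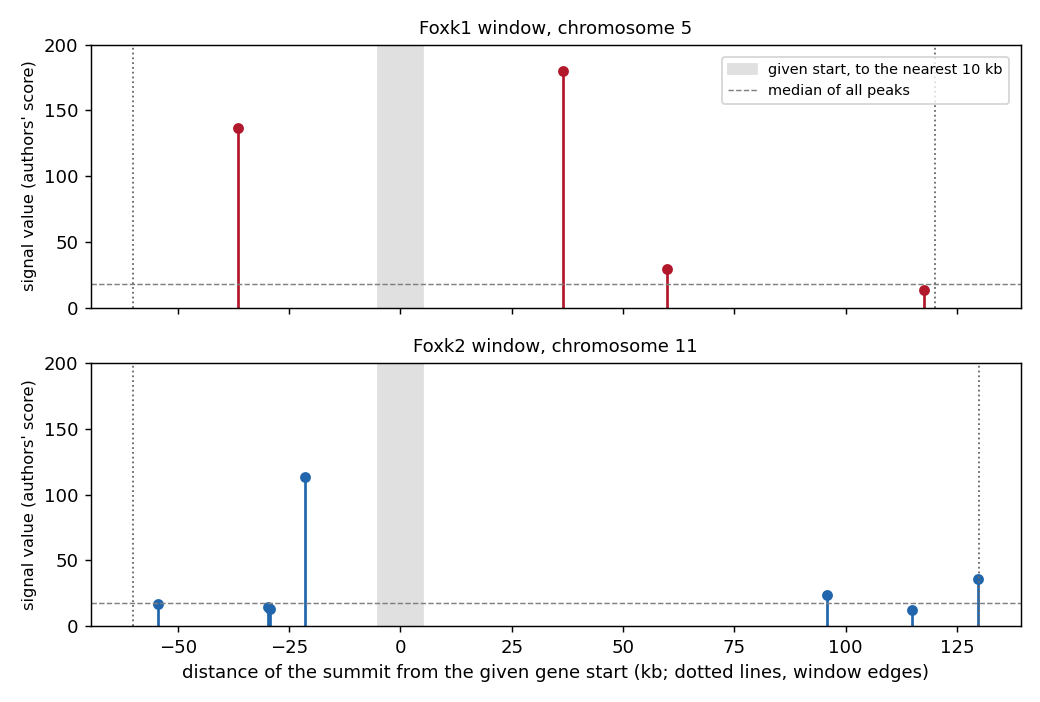
Signal value of each peak (vertical axis, the authors' score) against the distance of its summit from the given gene start in kb, for the 4 peaks of the Foxk1 window and the 7 of the Foxk2 window. Grey bands mark the 5 kb to either side within which each start is assumed to lie, and hold no peak. The strong peaks stand 36.5 kb to both sides of the Foxk1 start and 21.5 kb to the lower-coordinate side of the Foxk2 start.

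In the Foxk2 window, 1 strong peak stood on the upstream side of the given start. It lay on chromosome 11 from 121098300 to 121098759, 21.5 kb from the given start, with a signal value of 113 and the lowest q-value of 0.00014. It ranked 307th in the list and 37th of the 2103 peaks on chromosome 11. It was also the peak nearest to the start of Foxk2 in the list. In gene order, the neighbours on this side are Narf, a nuclear protein that binds prelamin A, Cybc1, which is needed for the phagocyte NADPH oxidase, and Hexdc, a hexosaminidase. Whether the strong peak lies in or beside one of these was not determined on mm9.

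The other 3 peaks on the upstream side of the given Foxk2 start were weak, and none of them was assigned to a gene. A pair lay from 121089972 to 121090431 and from 121090422 to 121090881, with summits 450 bp apart and 10 bp of overlap. Their signal values were 14.5 (q-value 0.00167) and 13.3 (q-value 0.00302), both below the median of the list. The pair stood 7.88 kb from the strong peak and 29.8 and 29.3 kb from the given start. Of all peaks in the list, 16.3% had another summit within 1 kb. The peak farthest upstream, from 121065335 to 121065794, had a signal value of 17.2 (q-value 0.00102) at 54.4 kb from the start.

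On the transcribed side of Foxk2 the first peak came only 95.7 kb after the given start. It lay from 121215515 to 121215974 with a signal value of 23.5 (q-value 0.000478). After it came 121234605 to 121235064, with 12.5 (q-value 0.00465), and 121249540 to 121249999, with 36.2 (q-value 0.00056). The peak of 12.5 was close to the lowest signal value listed, 11.3. Next after Foxk2 on this side are Wdr45b, a member of the autophagy-related WIPI family, and Rab40b, a small GTPase of the Rab family. None of the peaks on this side was assigned to Foxk2 or to these neighbours. The summit of the peak of 36.2 was 231 bp inside the window's edge, so that the count of 7 depends on where that edge was drawn.

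**Figure D2:**
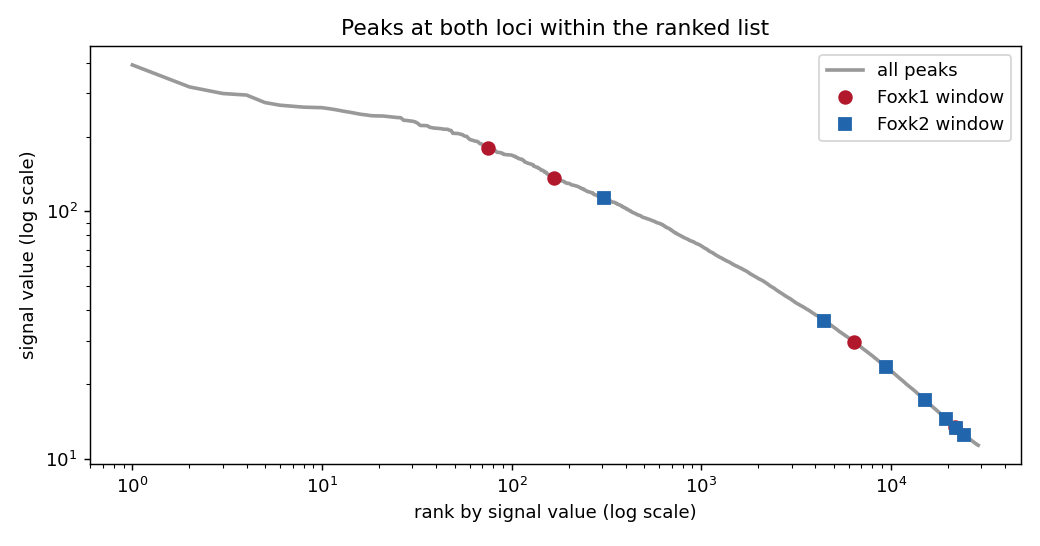
All 28933 peaks ordered by signal value, with rank on the horizontal and signal value on the vertical axis, both on log scales; points are the peaks of the Foxk1 (circles) and Foxk2 (squares) windows. The 3 strong peaks sit at ranks 75, 168 and 307, apart from the other 8, which sit between 4464 and 24430.

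The 11 peaks thus fell into 3 strong peaks and 8 between 12.5 and 36.2, with no signal value between 36.2 and 113. Signal values of 100 or more (a limit chosen with the data in view) were found for 3 of the 11 (27.3%), against 1.47% of the whole list, 1.8% of peaks on chromosome 5 and 2.04% on chromosome 11. The median of the 11 was 23.5, and 6 of them (54.5%) were at or above the list's median, against 50% by definition. The limit of 100 falls in the gap between 36.2 and 113, which favours a contrast. By the lowest q-value, which the same number of members had (3 of 11), the share in the whole list was 12.3%. At the Foxk1 window the median was 82.95, with 3 of 4 peaks at or above the list's median, and at the Foxk2 window it was 17.2, with 3 of 7. The value of 82.95 is only the midpoint between peaks of 29.7 and 136, and no peak of the window lay near it. Medians over chromosomes 5 and 11 were 18.5 and 18.7. With 4 and 7 peaks from 1 list, the difference between both loci was not tested.

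How unusual these windows are was described by cutting chromosomes 1 to 19 and X into windows of the same width. For the 180 kb of the Foxk1 window, 21.2% of 14631 windows held at least 4 peaks, and on chromosome 5 the share was 26.1% of 846. For the 190 kb of the Foxk2 window, 8.36% of 13858 windows held at least 7 peaks, and on chromosome 11 the share was 15.8% of 640. Among windows that held any peak, the shares were 38.4% of 8067 for Foxk1 and 14.8% of 7823 for Foxk2. Expressed as density, the windows had 22.2 and 36.8 peaks per Mb, against 12.8 on chromosome 5 and 17.3 on chromosome 11.

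By signal value the order of both loci was the opposite. A peak of at least 100 was present in 2.77% of windows as wide as that of Foxk1, and 2 or more such peaks were present in only 21 of the 14631 (0.144%). The Foxk1 window held 2, but the limit of 100 was chosen with the data in view. These shares are over all windows, of which only 8067 held any peak. A peak as high as 180 was found in 75 windows of that width (0.513%), of which 7 were on chromosome 5. For Foxk2, a peak of at least 100 occurred in 2.95% of windows of its width and one as high as 113 in 298 (2.15%), of which 35 were on chromosome 11. The Foxk2 window held 1, and 2 or more were present in 0.123% of windows of its width. Both windows were drawn around a gene whereas the others were cut at fixed positions, and windows without genes, or without mappable sequence, were not set aside: 44.9% of the 180 kb windows held no peak.

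**Figure D3:**
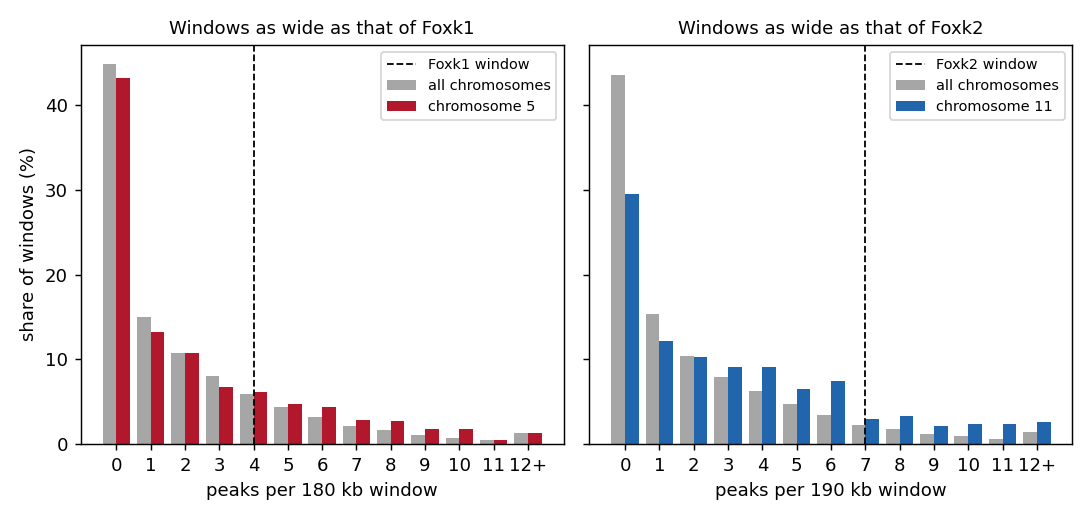
Share of windows (vertical axis, percent) by number of peaks (horizontal axis) for windows of 180 kb (left) and 190 kb (right), over all chromosomes (grey) and over the chromosome of the gene (coloured). Dashed lines mark the 4 peaks of the Foxk1 window and the 7 of the Foxk2 window, which 21.2% and 8.36% of all windows reached.

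A lack of peaks near the starts was not rare for positions on these chromosomes. Between the first and last summit of chromosome 5, 59.9% of positions were at least as far from a summit as the given Foxk1 start. On chromosome 11, 60.9% of positions were at least as far from one as the given Foxk2 start. Moving each start by up to 5 kb put the nearest summit between 31.5 and 36.5 kb away for Foxk1 and between 16.5 and 26.5 kb for Foxk2, and the shares between 59.9% and 63.0% and between 56.0% and 66.9%. No summit came within 10 kb of either start in any of these positions. The share was taken over all positions, and gene starts as a class were not compared.

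The peak-free stretches around both starts were longer than the median interval between neighbouring summits, which was 19.8 kb on chromosome 5 and 19.02 kb on chromosome 11. A given position falls more often in a long interval than in a short one, so this comparison does not set these starts apart. Of the intervals between neighbouring summits on chromosome 5, 22.2% were at least as long as the 73.1 kb around the Foxk1 start, and they covered 81.0% of the length between the first and last summit. On chromosome 11, 10.4% of intervals were at least as long as the 117 kb around the Foxk2 start, and they covered 59.0% of that length. That no peak was listed is not a measurement that Foxk1 was absent.

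**Figure D4:**
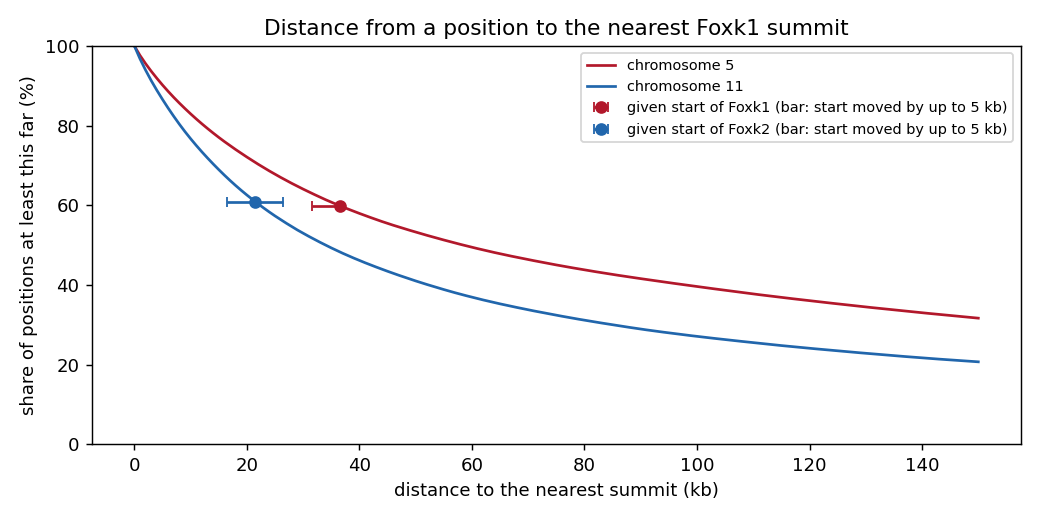
Share of positions (vertical axis, percent) whose nearest Foxk1 summit is at least the distance on the horizontal axis (kb), for chromosomes 5 and 11; points are the given starts of Foxk1 (36.5 kb, 59.9%) and Foxk2 (21.5 kb, 60.9%), with bars for a start moved by up to 5 kb. Both points lie where most positions of the chromosome are at least as far from a summit.

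The wider surroundings of Foxk1 held fewer peaks than those of Foxk2. Within 500 kb of the given Foxk1 start there were 6 peaks, of which 3 had a signal value of at least 100. The median of the 6 was 74.8, the midpoint between peaks of 29.7 and 119.9. Within the same distance of the Foxk2 start there were 23 peaks, of which 2 reached 100, with a median of 18.1. On the lower-coordinate side the first peak outside the Foxk1 window lay 359 kb from its edge, with a signal value of 11.6, which left 382 kb without a peak before the one of 136. On the other side, the first peak outside lay from 143105263 to 143105722, 105 kb from the edge, with a signal value of 119.9 and rank 256. The strong peaks around Foxk1 thus stood in a stretch with few weak ones. The first peaks outside the Foxk2 window were of 22.1, 18.8 kb from the upper edge, and of 25.9, 112 kb from the lower one. On the lower-coordinate side this left 118 kb without a peak before the first peak of that window.

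The strong peaks differed in how isolated they were. The peak of 136 upstream of Foxk1 had its nearest other summit 73.1 kb away, and 32 of the 426 peaks that reached 100 (7.51%) were as isolated. The peak of 180 on the transcribed side had a neighbour at 23.3 kb, the one of 29.7, and 27.2% of such peaks were as isolated. The peak of 113 upstream of Foxk2 had one at 7.88 kb, and 47.7% were as isolated. The median distance from a peak of at least 100 to its nearest neighbour was 6.61 kb, and over all peaks it was 8.885 kb. The peaks of 136 and 180 stood farther from their neighbours than both medians. The distance of 7.88 kb for the peak of 113 fell between these medians.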

How the data were processed

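Sequenced chromatin of MEFs came from 3 immunoprecipitations with Foxk1 antibody, 3 with IgG and 2 inputs. The antibody label gave the groups, except for input, which the titles name. Bowtie and mm9 were used for alignment, per the submitters' processing notes. Bowtie's version, the peak caller, its settings and any pooling were not given in the sources used here. A single peak list was deposited by the authors, which holds a signal value per peak (a score with no stated scale) and a q-value on a linear scale, from 0.00014 to 0.00995. All peaks were 460 bp wide with a central summit. Depth is unknown, and counting error could not be given.

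Coordinates are 1-based on mm9. Gene names and their order came from RefSeq on GRCm38.p6, with no conversion of positions, and promoters from the same build, of which 1 of the 2 genes had an entry. Gene lists of pathways were not analysed here, as no mm9 annotation was used. All peaks of both windows are named, by the rule that a window with 12 or fewer peaks is given in full. The members and lists were chosen with earlier results of these data known. Windows, distances and intervals were computed with Python 3.11.15, numpy 2.4.6, pandas 2.3.3 and matplotlib 3.10.9, and tested on simulated data. Alternatives were limits on signal value and on q-value (at most 0.001), merging of summits under 2000 bp apart, wider and narrower windows, shifted windows, and a start moved by 5 kb.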

Additional observations from a re-analysis of the deposited data

How the results depend on the processing

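The number of peaks in the Foxk1 window stayed at 4 with summits under 2000 bp apart merged or with the window doubled in width, and was 3 with signal values at or above the list's median or q-values of at most 0.001. For Foxk2 the number fell from 7 to 3 under either limit, and was 6 with merging and 9 in the extended window. Within 20 kb of the given start it was 0 for both, and 1 for Foxk2 with its start moved by 5 kb towards lower coordinates; the highest signal value there had no value to give for the starts as given. The highest signal values were the same in the extended windows. The median signal value of the Foxk1 window was 82.95, and 136 when limited to peaks that reached the list's median; that of Foxk2 was 17.2 and 36.2, as both keep the higher peaks; in the extended window that of Foxk2 was 22.1. By peak number the windows ranked 2228th and 846th among windows of their width, and 2259th and 824th with windows shifted by 90 and 95 kb. Leaving out windows without a peak cannot change these ranks, but the share of windows with at least as many peaks rose from 21.2% to 38.4% for Foxk1 and from 8.36% to 14.8% for Foxk2. With starts moved by 5 kb towards lower and towards higher coordinates, a choice made after seeing the data, the nearest summit was 31.5 and 31.5 kb from the Foxk1 start and 16.5 and 26.5 kb from the Foxk2 start. Among peaks at or above the median, also chosen after seeing the data, these distances were those of the whole list. No paired analysis was possible because single replicates have no values in the list, and none could be left out. Depth and the rule by which peaks were listed are unknown, so how weak a site could be and still be listed is not known.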
